A study of Mus musculus with 8 samples.

Results

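The genes described here are 40 mouse genes of mitochondrial protein import, matrix folding and matrix proteolysis, measured in bone marrow-derived macrophages (macrophages grown in culture from bone marrow) by RNA sequencing after 24 h with interleukin 4. They were chosen by symbol from a list of 40 names covering the translocases of the outer membrane (TOM) and inner membrane (TIM), the matrix chaperones and the mitochondrial proteases, and all 40 were found among the 24421 gene symbols of the count files. In 4 libraries (CKO, replicates 2, 6, 7 and 8) the mice were OPA1f/f and carried Lyz2-Cre, a driver whose recombinase is made in myeloid cells under control of Lyz2. In the other 4 (FLOX, replicates 3, 4, 6 and 7) they were OPA1f/f without the driver. Both groups carry the floxed Opa1 alleles and both received interleukin 4, so each comparison is of the driver with the deletion it directs, under that cytokine. The labels give neither the age of the mice nor whether libraries of a group came from separate mice, and the p-values therefore measure the spread between these libraries. The study asked how loss of OPA1, the GTPase that fuses inner membranes and shapes cristae, changes macrophage transcription.

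Nearly all mitochondrial proteins are encoded in the nucleus, made in the cytosol and imported. Precursors bind receptors of the TOM complex and cross its pore; carrier proteins are then passed by the small TIM chaperones to the TIM22 translocase, whereas precursors with a presequence go to the TIM23 channel and are pulled into the matrix by a motor built around the mitochondrial Hsp70, mortalin. In the matrix the presequence is cut off, the protein folds with help of the chaperonin pair Hsp60 and Hsp10, and damaged proteins are degraded by ATP-dependent proteases such as LON, ClpXP and the m-AAA protease. Induction of matrix chaperones and proteases is the textbook readout of the mitochondrial unfolded protein response, and in macrophages mitochondrial function is bound up with alternative activation by interleukin 4.

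Between 11764855 and 15592868 read pairs per CKO library and between 13770002 and 18939948 per FLOX library were assigned to genes. Opa1 itself stood at 94.6, 98.6, 105 and 103 CPM in CKO, against 104, 114, 108 and 130.4 CPM in FLOX (log2 change -0.19 with SE 0.07 and adjusted p = 0.0544 in edgeR); a count summed over the whole gene does not resolve the floxed exons and so does not check the labels. Opa1 was called lower in 4 of 19 alternatives to the fit. Lyz2, the gene into which Cre is inserted in the widely used Lyz2-Cre strain, was at 2387, 1809, 1923 and 2004 CPM in CKO, against 8294, 7308, 7247 and 6906 CPM in FLOX (log2 change -1.87 with SE 0.10 and adjusted p = 1.05e-07 in edgeR), with every CKO library below every FLOX library (CPM is the read-pair count scaled to library size). All 7 macrophage markers were expressed in every library and summed to 6812 to 7325 CPM in CKO and 7536 to 7967 CPM in FLOX. Of these, Fcgr1 rose (log2 change 1.04), Csf1r (-0.42), Cd68 (-0.48) and Mertk (-0.78) fell, and Adgre1, Itgam and Mrc1 were not called. The protocol text speaks of islets, but 9 of 10 islet markers, insulin genes included, had no read pair in any library and Chga had 2 in FLOX replicate 6. Summed neutrophil markers came to 3.70 to 8.38 CPM in CKO and 1.63 to 2.94 CPM in FLOX over the 7 in the files, with Elane and Retnlg at 0; of the 3 tested, S100a9 (log2 change 1.55) and Ltf (1.75) rose and S100a8 was not called. Summed lymphocyte markers (8 genes) came to 0.876 to 1.11 CPM in CKO and 1.49 to 2.48 CPM in FLOX, nearly all of it Cd4, which fell (log2 change -1.34), with 5 of the 8 at 0. Stromal and endothelial markers (7 genes) summed to 12.5 to 15.0 CPM in CKO and 8.20 to 9.68 CPM in FLOX, most of it Pecam1, which rose (log2 change 0.68). All 8 genes of cycling cells on the list rose, and their sum was 2718 to 3246 CPM in CKO against 1483 to 1774 CPM in FLOX. Apart from the islet list, the sums of these lists did not overlap between genotypes, and their part in the differences below was not tested.

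The import and quality-control genes changed little as a group, and a few of them changed clearly. All 40 passed the filter on low counts. Of these, 14 rose and 3 fell in CKO at an adjusted p of 0.05 (edgeR's quasi-likelihood test with Benjamini-Hochberg adjustment over all genes, as throughout), that is 17 of 40 (42.5%), beside 45.4% of all 11519 genes tested (23.8% higher and 21.6% lower). Their median log2 fold change was 0.04, beside -0.02 over all tested genes, and the median size of the change without its sign was 0.12 on the log2 scale, beside 0.23 over all tested genes. A change of more than 1.5-fold was seen in 2 of 40 members (Hspa9 and Timm8a1; 5%) and in 16.3% of all tested genes, and one of more than 2-fold in 0 of 40 and in 5.87%. These comparisons with all tested genes were not matched for expression level, and the lowest member mean was 7.86 CPM (Pam16). Every CKO library lay on one side of every FLOX library for 15 members, above for 14 and below for 1, beside 42.7% of tested genes with no overlap (22.7% above and 20% below). Exons of 19 members share bases with another annotated gene, and since the strand setting of the counting is not given in the sources used here, reads in such stretches cannot be told apart. For Tomm40, Timm8b, Timm17b and Timm23 the symbol of the only overlapping gene is absent from the count files. Some genes stand there under an older symbol (Timm29 as 1810026J23Rik). An absent symbol, here and below, thus does not show that the gene was not counted. The count of members that fell was the least firm value: it was 1 without CKO replicate 8 and 5 without FLOX replicate 7.

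**Figure D1:**
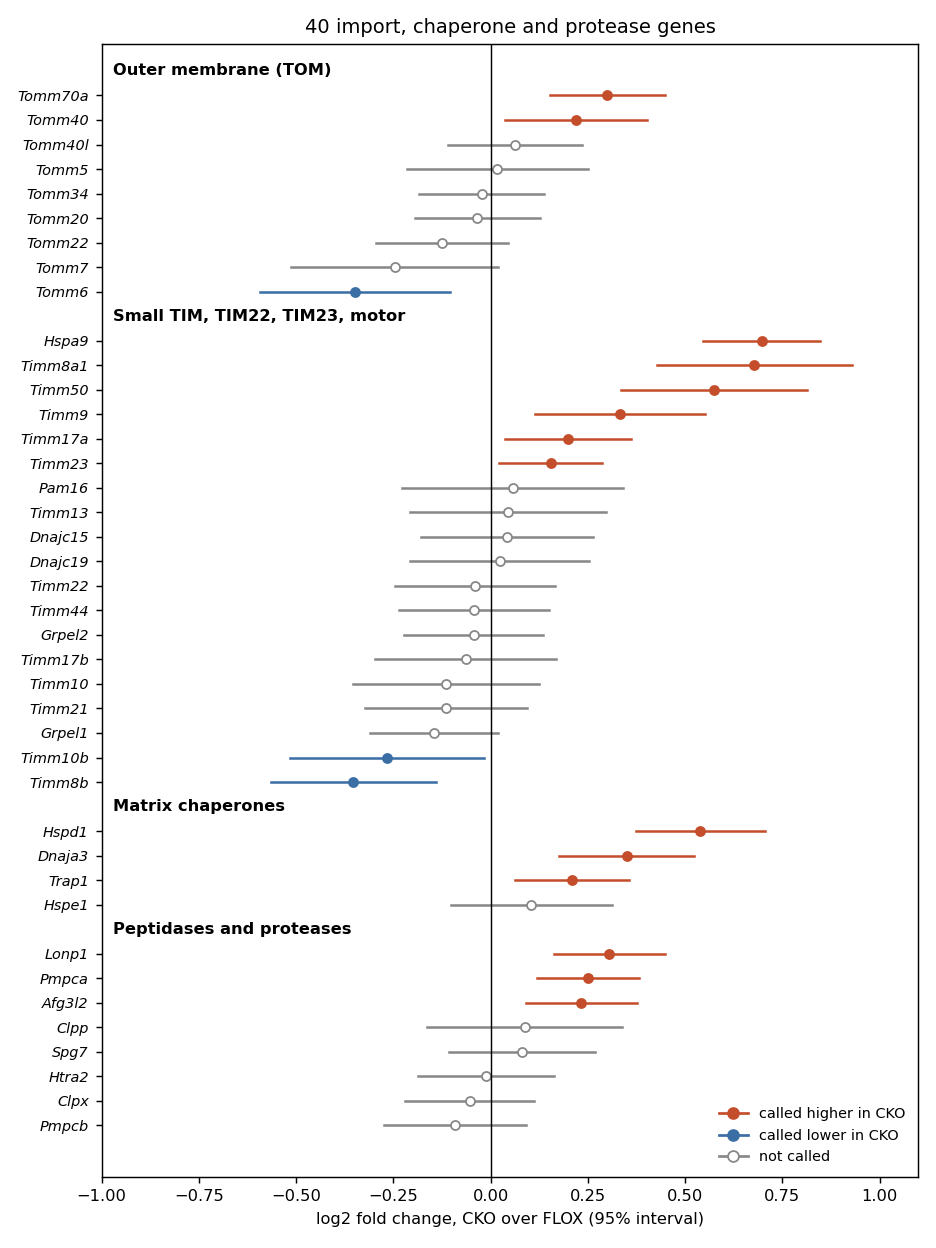
Log2 fold change (CKO over FLOX, x axis) with its 95% interval for each of the 40 genes, grouped by place in the pathway; filled points passed an adjusted p of 0.05. Hspa9 (0.70), Timm8a1 (0.68), Timm50 (0.57) and Hspd1 (0.54) stand at the right, and Tomm6 (-0.35) and Timm8b (-0.35) at the left.

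Summed over the 40 genes, CKO libraries held 2471 to 2616 CPM and FLOX libraries 2062 to 2342 CPM, without overlap. Most of that gap came from Hspa9 and Hspd1. Without these 2 genes, a split made after seeing the values, the remaining 38 summed to 1730, 1756, 1758 and 1749 CPM in CKO replicates 2, 6, 7 and 8, and to 1795, 1598, 1704 and 1552 CPM in FLOX replicates 3, 4, 6 and 7. The FLOX libraries then spread on both sides of the CKO range. In bulk RNA a lower share of cells that express a gene and less RNA per cell cannot be told apart, here and throughout. Per kilobase of transcript, which allows genes to be compared in level, the most abundant members were Hspa9 (182 CPM per kb in CKO and 112 in FLOX), Hspe1 (128 in CKO and 119 in FLOX) and Hspd1 (112 in CKO and 77.1 in FLOX). The lowest was Dnajc15 (3.94 in CKO and 3.82 in FLOX).

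In the outer membrane translocase, the receptor Tomm70a and the pore Tomm40 rose, the small subunit Tomm6 fell, and the other 6 of 9 genes did not pass the test. Among all tested genes 23.8% rose and 21.6% fell. Tomm70a (ENSMUSG00000022752, chromosome 16, 57121703 to 57156705, mm10, plus strand) encodes the receptor that takes carrier precursors from cytosolic chaperones. It stood at 108, 119, 115 and 124 CPM in CKO replicates 2, 6, 7 and 8, against 96.0, 97.2, 90.4 and 94.1 CPM in FLOX replicates 3, 4, 6 and 7 (log2 change 0.30 with SE 0.06 and adjusted p = 0.00142 in edgeR). Every CKO library was above every FLOX library. Tomm40, the channel of the complex, was at 50.7, 49.4, 50.6 and 49.0 CPM in CKO, against 45.4, 38.4, 47.7 and 39.8 CPM in FLOX (log2 change 0.22 with SE 0.07 and adjusted p = 0.0301 in edgeR). Its groups did not overlap either, but the call was lost without FLOX replicate 4 (log2 change 0.17, adjusted p = 0.0855 in edgeR) and without FLOX replicate 7 (0.19, adjusted p = 0.0739 in edgeR). Both were the FLOX libraries with the lowest Tomm40.

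Tomm6, a small subunit that stabilises the assembled complex, showed the opposite sign. It was at 39.6, 35.0, 36.2 and 32.0 CPM in CKO, against 53.6, 39.6, 47.4 and 41.0 CPM in FLOX (log2 change -0.35 with SE 0.10 and adjusted p = 0.0126 in edgeR). The highest CKO library and the lowest FLOX library met at 39.6 CPM, and the call was lost without CKO replicate 8 (log2 change -0.28, adjusted p = 0.0524 in edgeR) and without FLOX replicates 3 and 6 together (-0.18, adjusted p = 0.0786 in edgeR). Exons of Tomm6 also share 76.0% of their bases with Gm21981, a predicted gene on the same strand in GENCODE, and 19.4% with Tomm6os on the opposite strand. The symbol Gm21981 is absent from the count files, and Tomm6os reached at most 0.568 CPM in any library. Tomm7, another small subunit, was at 47.4, 44.2, 47.8 and 42.6 CPM in CKO, against 64.4, 47.4, 59.5 and 44.1 CPM in FLOX (log2 change -0.25 with SE 0.11 and adjusted p = 0.0833 in edgeR) and was not called. Here FLOX replicates 3 and 6 stood above the CKO range and FLOX replicates 4 and 7 within it. Without FLOX replicate 4 Tomm7 was called lower (log2 change -0.30, adjusted p = 0.0434 in edgeR), as it was without FLOX replicate 7 (-0.33, adjusted p = 0.0142 in edgeR). Without FLOX replicates 3 and 6 together the estimate was -0.01 (adjusted p = 0.921 in edgeR). The third small subunit, Tomm5, was at 25.3 to 28.6 CPM in CKO and 23.3 to 31.5 CPM in FLOX.

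The presequence receptors did not pass the test. Tomm20 was at 108, 114, 124 and 118 CPM in CKO, against 129, 121, 115 and 110.1 CPM in FLOX (log2 change -0.03 with SE 0.07 and adjusted p = 0.705 in edgeR), and its 95% interval ran from -0.20 to 0.13 on the log2 scale. Tomm22, the central receptor that ties the complex together, was at 90.9, 86.7, 88.0 and 85.5 CPM in CKO, against 107, 90.2, 98.6 and 87.1 CPM in FLOX (log2 change -0.12 with SE 0.07 and adjusted p = 0.165 in edgeR). The pore paralogue Tomm40l was at 33.8 to 37.7 CPM in CKO and 32.2 to 36.7 CPM in FLOX; 64.3% of its annotated exon bases overlap Nr1i3 on the opposite strand, which reached at most 0.378 CPM in any library. Tomm34, a cytosolic co-chaperone of import, was at 42.8 to 47.2 CPM in CKO and 42.4 to 49.1 CPM in FLOX.

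The small TIM chaperones, which escort hydrophobic precursors across the intermembrane space, split by sign: of 6 genes, Timm8a1 and Timm9 rose and Timm8b and Timm10b fell. All tested genes split too, with 23.8% higher and 21.6% lower. Timm8a1 (ENSMUSG00000048007, chromosome X, 134537256 to 134541865, mm10, minus strand) is the mouse counterpart of the gene mutated in human deafness-dystonia syndrome. It stood at 12.2, 15.9, 13.8 and 14.7 CPM in CKO, against 9.32, 9.001, 9.18 and 7.88 CPM in FLOX (log2 change 0.68 with SE 0.10 and adjusted p = 0.000182 in edgeR), with no overlap. Its paralogue Timm8b was at 19.3, 17.7, 17.6 and 16.4 CPM in CKO, against 24.9, 19.8, 22.8 and 22.9 CPM in FLOX (log2 change -0.35 with SE 0.09 and adjusted p = 0.0054 in edgeR), or 78.3% of FLOX, again with no overlap, and 15.6% of its exon bases overlap a gene on the opposite strand (Nkapd1, a symbol absent from the count files). Both directions held in all 19 alternatives to the fit. Timm9, the partner of Timm10 in the main carrier chaperone, was at 12.1, 12.2, 11.6 and 11.995 CPM in CKO, against 9.39, 8.40, 10.4 and 9.65 CPM in FLOX (log2 change 0.33 with SE 0.09 and adjusted p = 0.00893 in edgeR). Timm10 itself was at 9.74 to 11.6 CPM in CKO and 9.87 to 12.2 CPM in FLOX (log2 change -0.11 with SE 0.10 and adjusted p = 0.367 in edgeR), and was not called; the difference between these 2 partners was not tested.

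Timm10b, which docks the chaperones on the TIM22 translocase, was at 31.9, 27.8, 28.0 and 24.2 CPM in CKO, against 39.5, 31.3, 33.8 and 29.8 CPM in FLOX (log2 change -0.27 with SE 0.10 and adjusted p = 0.0494 in edgeR). This call was marginal and the ranges overlapped. It was lost without any one of CKO replicates 6, 7 and 8 (adjusted p = 0.118, 0.113 and 0.179) and of FLOX replicates 3 and 6 (adjusted p = 0.127 and 0.0813), and in 11 of the 19 alternatives in all. Timm13, which pairs with the products of Timm8a1 and Timm8b, was at 44.3, 43.8, 44.9 and 40.8 CPM in CKO, against 46.3, 36.8, 49.7 and 35.3 CPM in FLOX (log2 change 0.04 with SE 0.10 and adjusted p = 0.748 in edgeR). FLOX replicates 3 and 6 lay above all CKO libraries and FLOX replicates 4 and 7 below all of them, and without FLOX replicates 3 and 6 Timm13 was called higher (log2 change 0.27, adjusted p = 0.00509 in edgeR). Without FLOX replicates 4 and 7 together the estimate was -0.15 and not called (adjusted p = 0.0871 in edgeR), and it was below 0 in 3 of the 19 alternatives. The carrier translocase Timm22 was at 20.5 to 23.7 CPM in CKO and 19.7 to 24.4 CPM in FLOX.

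The promoter of Timm8a1, the small TIM gene with the largest rise, is shown because it holds the hexamer CACGTG (E-box, the letters bound by MYC family factors) at 2 places. The window runs from 250 bases before to 50 after the RefSeq start (GRCm38.p6, chrX:134541621-134541920, minus strand), written 5′ to 3′ with both matches in capitals.
Timm8a1: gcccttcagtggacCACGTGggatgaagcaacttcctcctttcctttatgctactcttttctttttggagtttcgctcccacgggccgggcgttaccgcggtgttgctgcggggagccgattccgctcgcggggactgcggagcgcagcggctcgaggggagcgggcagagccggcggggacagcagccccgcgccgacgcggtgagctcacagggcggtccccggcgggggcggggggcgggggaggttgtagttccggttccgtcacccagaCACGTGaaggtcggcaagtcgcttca
Of 33 members with a RefSeq window, 6 held CACGTG (18.2%), beside 8.09% of the windows' 27025 genes. The 6 were Tomm20, Timm8a1, Timm9, Timm10, Hspd1 and Lonp1. The share over all genes includes genes not tested here and was not matched for expression level. A match is a description of letters and not of binding.

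In the TIM23 translocase the rise was clearest for Timm50. Timm50 (ENSMUSG00000003438, chromosome 7, 28305516 to 28312072, mm10, minus strand) encodes the receptor that takes presequences from the TOM complex. It was at 45.2, 47.2, 46.8 and 47.1 CPM in CKO, against 36.2, 27.4, 34.8 and 26.4 CPM in FLOX (log2 change 0.57 with SE 0.10 and adjusted p = 0.00045 in edgeR), 1.49-fold higher in CKO. The CKO libraries lay close together, whereas FLOX replicates 4 and 7 were well below FLOX replicates 3 and 6, and the log2 fold change ran from 0.39 to 0.79 over the 19 alternatives, all of which called it. The channel subunit Timm23 was at 62.4, 64.0, 61.3 and 62.5 CPM in CKO, against 58.9, 55.1, 55.6 and 55.2 CPM in FLOX (log2 change 0.15 with SE 0.05 and adjusted p = 0.0347 in edgeR). Its partner Timm17a, the other main channel subunit, was at 40.2, 41.1, 38.8 and 40.8 CPM in CKO, against 37.2, 35.9, 35.4 and 31.7 CPM in FLOX (log2 change 0.20 with SE 0.07 and adjusted p = 0.0268 in edgeR). Both rises were small and did not hold throughout. The Timm23 call ended when CKO replicate 6 (adjusted p = 0.0612 in edgeR) or FLOX replicate 4 (0.082), 6 (0.0753) or 7 (0.0699) was left out, and that of Timm17a without FLOX replicate 7 (log2 change 0.15, adjusted p = 0.0731 in edgeR). Timm17b and the regulatory subunit Timm21 did not pass the test. Timm17b was at 12.4 to 13.998 CPM in CKO and 11.8 to 15.3 CPM in FLOX. Timm21 was at 13.2 to 15.7 CPM in CKO and 14.5 to 16.5 CPM in FLOX.

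Among the 7 genes of the import motor only Hspa9 passed the test, beside 45.4% of all tested genes, and Hspa9 had the largest fold change of all 40 members. Hspa9 (ENSMUSG00000024359, chromosome 18, minus strand) encodes mortalin, the mitochondrial Hsp70, which pulls precursors inward and also folds them. It was at 503, 563, 576 and 573 CPM in CKO, against 356, 339, 341 and 330.1 CPM in FLOX, averaging 554 CPM (SD 34.2, n = 4) in CKO and 341 CPM (SD 10.7, n = 4) in FLOX (log2 change 0.70 with SE 0.06 and adjusted p = 2.96e-06 in edgeR). The lowest CKO library, replicate 2, was far above the highest FLOX library, replicate 3, and the rise of 1.62-fold held in all 19 alternatives (log2 fold change 0.67 to 0.77). A larger change in either direction was seen in 12.1% of all tested genes. Timm44, which anchors mortalin at the channel, did not pass the test and was at 47.4, 54.1, 53.4 and 57.6 CPM in CKO, against 62.1, 52.7, 51.5 and 52.9 CPM in FLOX (log2 change -0.04 with SE 0.08 and adjusted p = 0.686 in edgeR). Grpel1, the nucleotide exchange factor that resets mortalin, was at 51.9, 52.9, 54.1 and 52.4 CPM in CKO, against 64.0, 58.0, 59.5 and 52.1 CPM in FLOX (log2 change -0.15 with SE 0.07 and adjusted p = 0.0986 in edgeR). It was called lower only without FLOX replicate 7 (log2 change -0.20, adjusted p = 0.0226 in edgeR) and without FLOX replicates 4 and 7 together (-0.23, adjusted p = 0.00761 in edgeR), among the alternatives run. The second exchange factor Grpel2 was at 26.6 to 31.1 CPM in CKO and 28.1 to 31.5 CPM in FLOX. The J proteins that stimulate mortalin did not pass the test either. Dnajc19 was at 23.3 to 25.6 CPM in CKO and 21.0 to 27.7 CPM in FLOX, Dnajc15 at 22.9 to 26.1 CPM in CKO and 20.1 to 26.4 CPM in FLOX, and Pam16, their inhibitory partner, at 7.46 to 8.47 CPM in CKO and 6.81 to 9.39 CPM in FLOX. The 95% intervals of these 6 motor genes lay between -0.31 and 0.34 on the log2 scale.

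**Figure D2:**
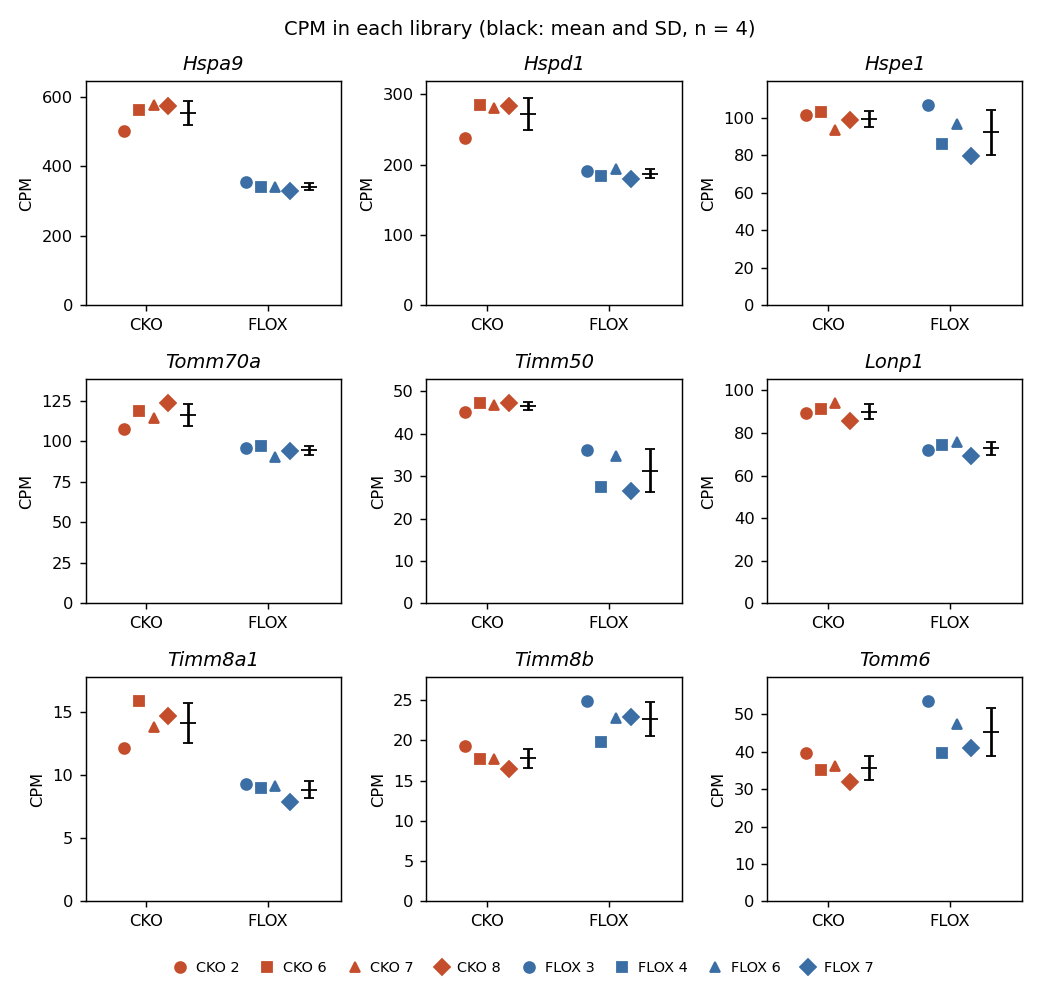
CPM (y axis, from 0) of 9 genes in each CKO and FLOX library, with the mean and SD of 4 libraries beside them. Hspa9, Hspd1, Tomm70a, Timm50, Lonp1 and Timm8a1 are higher in every CKO library, Timm8b is lower in every CKO library, and the groups overlap for Hspe1 and meet for Tomm6.

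Of the 4 matrix chaperone genes, 3 rose and Hspe1 was not called, beside 23.8% of all tested genes called higher. Hspd1 (ENSMUSG00000025980, chromosome 1, 55077835 to 55088243, mm10, minus strand) encodes the chaperonin Hsp60, a barrel in which matrix proteins fold. It was at 238, 285, 281 and 283 CPM in CKO, against 191, 183, 194 and 179.6 CPM in FLOX (log2 change 0.54 with SE 0.07 and adjusted p = 4.34e-05 in edgeR), or 145% of FLOX. CKO replicate 2 was the lowest CKO library and still lay above every FLOX library. Hspe1 (ENSMUSG00000073676, chromosome 1, 55088132 to 55091307, mm10, plus strand) encodes its lid, Hsp10. It was at 102, 103, 93.3 and 98.7 CPM in CKO, against 107, 86.0, 96.4 and 79.8 CPM in FLOX (log2 change 0.10 with SE 0.08 and adjusted p = 0.336 in edgeR). FLOX replicate 3 exceeded all CKO libraries and FLOX replicates 4 and 7 were below all of them. Without FLOX replicates 3 and 6 together Hspe1 was called higher (log2 change 0.26, adjusted p = 0.0025 in edgeR), and without FLOX replicates 4 and 7 together the estimate was -0.03 and not called. Both genes have processed pseudogene copies in the mouse genome (5 named for Hspd1 and 6 for Hspe1 in GENCODE), and read pairs that align to more than 1 place were not counted.

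Hspd1 and Hspe1 lie head to head and share 1 promoter region, shown here because both genes are read from it and only Hspd1 passed the test. The RefSeq start of Hspe1 is at base 55088148 of chromosome 1 and the starts of Hspd1 are at 55087932 and 55088243 on the other strand, 216 and 95 bases away. Annotated exons of the pair share 112 bases on opposite strands, 4.24% of those of Hspd1 and 7.6% of those of Hspe1. The window of Hspe1 (GRCm38.p6, chr1:55087898-55088197, plus strand) is written 5′ to 3′, with 2 overlapping matches to the heat shock element in capitals (GAA, TTC and GAA with gaps of 2 bases between them, either strand; bases 162 to 179 of the window). They overlap 2 matches to the ETS letters CCGGAAG.
Hspe1: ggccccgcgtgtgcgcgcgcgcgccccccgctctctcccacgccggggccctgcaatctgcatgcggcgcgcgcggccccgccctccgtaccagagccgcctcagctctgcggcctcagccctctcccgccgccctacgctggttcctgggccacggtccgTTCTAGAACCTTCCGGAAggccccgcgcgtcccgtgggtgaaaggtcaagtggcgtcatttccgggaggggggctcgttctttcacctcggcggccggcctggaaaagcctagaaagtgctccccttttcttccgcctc
Of the 33 members with a window, 3 held the heat shock element (Timm9, Hspd1 and Hspe1; 9.09%), beside 0.662% of 27025 genes. The matches of Hspd1 and Hspe1 are the same bases (55088059 to 55088076 of chromosome 1), seen from both genes. For Hspd1 they lie in the window of the start at 55087932 and not in that of the start at 55088243. For CCGGAAG it was 14 of 33 (42.4%) beside 9.93%, for the NRF1 core GCATGCGC 3 of 33 (9.09%) beside 3.05%, and for CCAAT 11 of 33 (33.3%) beside 41.1%. The composite element of ATF4 and CHOP, searched as TGATGNAA, was in no member's window and in 4.51% of genes. These shares of 27025 genes include genes not tested here and were not matched to the members for expression level. An excess over them is therefore not shown to be particular to the members. Of the 33 members with a window 12 rose, and among those with each motif it was 4 of 6 for CACGTG, 5 of 14 for CCGGAAG, 5 of 11 for CCAAT, 2 of 3 for the heat shock element and 0 of 3 for GCATGCGC. Over all tested genes 23.8% were called higher, and the share among all genes with each motif was not computed. Whether a motif goes with the calls was therefore not tested. No RefSeq window was matched for Tomm40l, Tomm7, Timm21, Grpel2, Hspa9, Afg3l2 and Htra2.

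Dnaja3 and Trap1 also rose. Dnaja3, a J protein partner of mortalin in folding, was at 53.6, 63.3, 58.0 and 62.2 CPM in CKO, against 47.5, 42.6, 48.9 and 47.1 CPM in FLOX (log2 change 0.35 with SE 0.07 and adjusted p = 0.00155 in edgeR). Trap1, the mitochondrial relative of Hsp90, was at 79.3, 86.3, 80.0 and 78.7 CPM in CKO, against 71.0, 67.5, 74.5 and 67.5 CPM in FLOX (log2 change 0.21 with SE 0.06 and adjusted p = 0.0127 in edgeR). Neither gene's groups overlapped. Trap1 lost its call without FLOX replicates 4 and 7 together (log2 change 0.15, adjusted p = 0.0522 in edgeR).

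Among the 8 peptidases and proteases, Lonp1, Pmpca and Afg3l2 rose and 5 did not pass the test, beside 23.8% of all tested genes called higher. Lonp1 (ENSMUSG00000041168, chromosome 17, 56614297 to 56626887, mm10, minus strand) encodes the LON protease, which degrades oxidised and misfolded matrix proteins. It was at 89.3, 91.4, 94.1 and 85.4 CPM in CKO, against 71.9, 74.5, 75.9 and 69.1 CPM in FLOX (log2 change 0.31 with SE 0.06 and adjusted p = 0.000986 in edgeR). Pmpca encodes the substrate-recognising subunit of the peptidase that removes presequences. It was at 76.3, 75.8, 75.8 and 79.7 CPM in CKO, against 63.9, 64.0, 63.9 and 66.9 CPM in FLOX (log2 change 0.25 with SE 0.05 and adjusted p = 0.00215 in edgeR), and 20.4% of its annotated exon bases overlap Inpp5e on the opposite strand (17.3 to 25.1 CPM in CKO and 22.6 to 25.6 CPM in FLOX). The catalytic subunit Pmpcb was at 53.4, 50.3, 54.8 and 52.4 CPM in CKO, against 63.8, 51.8, 57.2 and 51.7 CPM in FLOX (log2 change -0.09 with SE 0.07 and adjusted p = 0.343 in edgeR). Afg3l2, a subunit of the m-AAA protease of the inner membrane, was at 64.5, 68.9, 71.1 and 70.1 CPM in CKO, against 59.2, 58.4, 55.7 and 60.6 CPM in FLOX (log2 change 0.23 with SE 0.06 and adjusted p = 0.00592 in edgeR). None of the 3 rises showed overlap between groups. The Lonp1 window, with 1 match to CACGTG in capitals, is shown beside that of Timm8a1 for comparison (GRCm38.p6, chr17:56626854-56627153, minus strand, 5′ to 3′).
Lonp1: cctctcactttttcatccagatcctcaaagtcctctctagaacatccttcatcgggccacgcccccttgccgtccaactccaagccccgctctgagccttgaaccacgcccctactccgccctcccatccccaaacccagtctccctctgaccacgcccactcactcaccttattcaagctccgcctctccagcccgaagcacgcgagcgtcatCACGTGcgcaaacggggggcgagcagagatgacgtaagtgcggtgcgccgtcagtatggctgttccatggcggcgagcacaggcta

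The remaining proteases did not pass the test. Spg7, the other m-AAA subunit, was at 50.6 to 55.5 CPM in CKO and 45.2 to 57.1 CPM in FLOX, and was called higher only without FLOX replicates 3 and 6 (log2 change 0.21, adjusted p = 0.0175 in edgeR). The matrix protease ClpXP is made of a peptidase and an unfoldase. Clpp was at 13.9 to 16.5 CPM in CKO and 12.1 to 15.8 CPM in FLOX, and Clpx at 40.8 to 46.6 CPM in CKO and 42.4 to 48.8 CPM in FLOX. The 95% interval of Clpp ran from -0.16 to 0.34 and that of Clpx from -0.22 to 0.11 on the log2 scale. Htra2, a serine protease of the intermembrane space, was at 30.4 to 33.7 CPM in CKO and 29.7 to 34.6 CPM in FLOX; its exons overlap those of Aup1 (25.6% of bases) and Loxl3 (18.2%) on the opposite strand.

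Ratios within a library do not depend on how libraries are scaled, so 9 pairs of members that act together or are paralogues were compared by their log2 ratio of counts. For 4 pairs the groups did not overlap and the exact two-sided permutation test over all 70 assignments of libraries to groups gave 0.0286, the smallest p this design allows. Adjusted over the 9 pairs it was 0.0643, so no pair passed 0.05. At that smallest p a pair can pass only if most of the 9 pairs reach it too. The adjusted value therefore cannot judge a single pair. The Timm8a1 to Timm8b ratio was -0.66, -0.15, -0.35 and -0.16 in CKO, against -1.41, -1.14, -1.31 and -1.54 in FLOX, a difference of 1.02. The Hspd1 to Hspe1 ratio was 1.23, 1.46, 1.59 and 1.52 in CKO, against 0.84, 1.09, 1.01 and 1.17 in FLOX, a difference of 0.42. In both pairs the CKO value closest to FLOX came from replicate 2. The Pmpca to Pmpcb ratio was higher by 0.34 (0.55 ± 0.07 in CKO and 0.21 ± 0.16 in FLOX, SD, n = 4 each) and the Tomm40 to Tomm40l ratio by 0.16 (0.46 ± 0.06 in CKO and 0.30 ± 0.07 in FLOX). Ratios keep any trend with transcript length within a library, described below. Lengths were 1421 and 518 bases for Timm8a1 and Timm8b, and 2423 and 774 for Hspd1 and Hspe1. For Pmpca and Pmpcb they were 3135 and 1615, and for Tomm40 and Tomm40l 1646 and 4712. The part of length in these ratios was not tested.

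For the other 5 pairs the groups overlapped. The Timm17a to Timm17b ratio differed by 0.25 (exact permutation p = 0.0857, adjusted 0.154), Clpp to Clpx by 0.15 and Afg3l2 to Spg7 by 0.14 (adjusted 0.321 for both). Grpel1 to Grpel2 differed by -0.10 (exact permutation p = 0.229, adjusted 0.321) and Dnajc15 to Dnajc19 by 0.01 (adjusted 0.914).

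**Figure D3:**
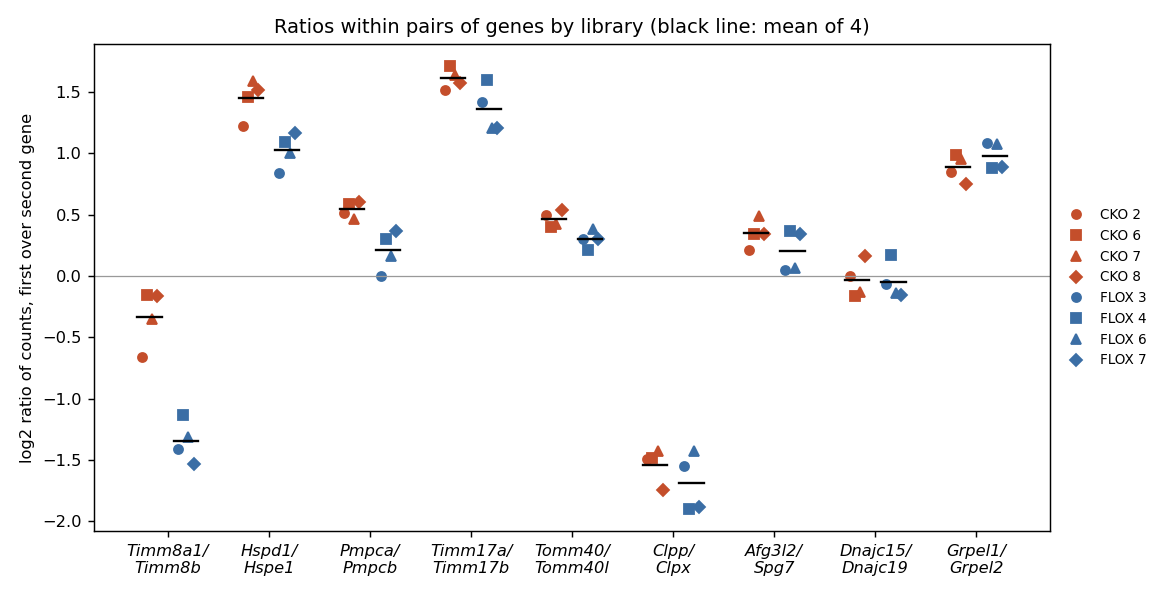
Log2 ratio of the counts of 2 genes (y axis) in each CKO and FLOX library for the 9 pairs, with the mean of 4 as a black line. The 4 CKO libraries lie above the 4 FLOX libraries for Timm8a1/Timm8b, Hspd1/Hspe1, Pmpca/Pmpcb and Tomm40/Tomm40l.

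Among other genes of import, processing and inner membrane quality control, Chchd4 and Cox18 had the largest rises and Mtx2 and Timm29 the largest falls. Of 26 such genes in the files, all tested, 7 rose and 3 fell (38.5%, beside 45.4% of all tested genes), and the median log2 fold change was 0.02. The count of rises was 4 without FLOX replicate 7. Chchd4, which with Gfer forms the disulfide relay that traps proteins in the intermembrane space, was at 22.97, 25.5, 24.9 and 26.3 CPM in CKO, against 17.4, 19.3, 18.2 and 15.7 CPM in FLOX (log2 change 0.50 with SE 0.08 and adjusted p = 0.000349 in edgeR). Cox18, an insertase for a mitochondrially encoded subunit of complex IV, was at 7.38, 7.38, 7.71 and 7.14 CPM in CKO, against 4.00, 2.87, 4.70 and 5.39 CPM in FLOX (log2 change 0.79 with SE 0.15 and adjusted p = 0.00115 in edgeR). Clpb, the disaggregase of the intermembrane space, was at 27.1, 33.3, 32.0 and 30.5 CPM in CKO, against 26.0, 24.8, 26.5 and 24.3 CPM in FLOX (log2 change 0.27 with SE 0.08 and adjusted p = 0.0113 in edgeR). Pitrm1, which digests cleaved presequences, was at 86.4, 94.1, 90.5 and 93.2 CPM in CKO, against 77.5, 76.4, 78.7 and 78.6 CPM in FLOX (log2 change 0.23 with SE 0.05 and adjusted p = 0.00452 in edgeR). Groups did not overlap for any of these 4.

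The 3 genes that fell act at the outer membrane, in carrier import and in membrane insertion. Mtx2, a metaxin linked to the sorting and assembly machinery of the outer membrane, was at 33.8, 33.9, 31.9 and 34.9 CPM in CKO, against 51.0, 44.7, 42.8 and 44.996 CPM in FLOX (log2 change -0.45 with SE 0.07 and adjusted p = 0.000243 in edgeR). The gene listed as 1810026J23Rik, now named Timm29 and a subunit of the TIM22 translocase in human cells, was at 57.4, 49.96, 55.6 and 53.9 CPM in CKO, against 70.5, 76.0, 66.8 and 72.0 CPM in FLOX (log2 change -0.40 with SE 0.06 and adjusted p = 0.000337 in edgeR). Oxa1l, the main insertase of the inner membrane, was at 58.7, 50.2, 50.3 and 53.1 CPM in CKO, against 66.4, 62.8, 61.5 and 61.0 CPM in FLOX (log2 change -0.25 with SE 0.07 and adjusted p = 0.00877 in edgeR). CKO lay below FLOX in every library for all 3. Afg3l1, an m-AAA subunit that is a pseudogene in humans, was at 76.2, 75.6, 76.2 and 72.3 CPM in CKO, against 69.8, 64.0, 69.2 and 65.1 CPM in FLOX. The remaining rises, Afg3l1, Mipep and Gfer (the last 2 named after their values were seen), were the least firm, with adjusted p of 0.0316, 0.0337 and 0.0438; each was lost without FLOX replicate 4 and without FLOX replicate 7 (adjusted p = 0.0665 to 0.114). The proteases that cleave OPA1 itself did not pass the test. Oma1 was at 19.4, 20.2, 20.3 and 21.9 CPM in CKO, against 24.3, 21.8, 22.7 and 23.1 CPM in FLOX (log2 change -0.17 with SE 0.07 and adjusted p = 0.0742 in edgeR), and Yme1l1 at 165, 172, 166 and 177 CPM in CKO, against 174, 193, 173 and 193 CPM in FLOX (log2 change -0.11 with SE 0.06 and adjusted p = 0.155 in edgeR).

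Transcription factors known to act on stress or mitochondrial genes were read beside the members. Atf5, named as a regulator of the mitochondrial unfolded protein response in mammals, was at 147, 127, 130.4 and 121 CPM in CKO, against 119, 112, 115 and 104 CPM in FLOX (log2 change 0.22 with SE 0.07 and adjusted p = 0.0228 in edgeR), and the call was lost without FLOX replicate 7 (log2 change 0.18, adjusted p = 0.0584 in edgeR). Atf4, the main factor of the integrated stress response, was at 312, 321, 366 and 334 CPM in CKO, against 271, 278, 253 and 234 CPM in FLOX (log2 change 0.36 with SE 0.07 and adjusted p = 0.00124 in edgeR). Ddit3, which encodes CHOP, was at 76.0, 72.2, 68.5 and 62.1 CPM in CKO, against 63.6, 57.7, 52.8 and 49.4 CPM in FLOX (log2 change 0.32 with SE 0.09 and adjusted p = 0.00949 in edgeR); it rose although the ranges overlapped. Cebpb, a partner of CHOP, fell and was at 61.0, 49.96, 47.4 and 49.7 CPM in CKO, against 71.9, 65.9, 79.3 and 63.4 CPM in FLOX (log2 change -0.44 with SE 0.09 and adjusted p = 0.00203 in edgeR). Nrf1, a factor for nuclear genes of mitochondria, was at 30.3, 30.5, 30.8 and 31.8 CPM in CKO, against 30.8, 28.5, 30.5 and 28.4 CPM in FLOX (log2 change 0.06 with SE 0.06 and adjusted p = 0.455 in edgeR). Myc had the largest change of the 6, at 30.5, 41.3, 45.9 and 49.7 CPM in CKO, against 16.6, 12.5, 11.9 and 13.7 CPM in FLOX (log2 change 1.62 with SE 0.15 and adjusted p = 5.51e-06 in edgeR). The part of any of them in the members' differences was not tested.

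The spread within FLOX followed transcript length, and it touches the members with short transcripts. FLOX replicate 3 was the highest FLOX library for 22 of 40 members and FLOX replicate 7 the lowest for 23. FLOX replicates 3 and 6 were the 2 highest for 26 of 40 members (65%), beside 33.97% of all tested genes. The deviation of each gene from its group mean was set against the length of its principal transcript, over the 40 members and, for comparison, over 11108 tested genes with a length. In FLOX replicates 3 and 6 Spearman's rho was -0.43 and -0.44 over the members (-0.64 and -0.39 over all genes), so short transcripts were relatively high there. In FLOX replicates 4 and 7 it was 0.59 and 0.23 over the members (0.45 and 0.60 over all genes). Deviations from a group mean cancel within the group for each gene. The opposite signs in FLOX replicates 4 and 7 are therefore not a separate observation from those in FLOX replicates 3 and 6. In CKO replicates 2, 6, 7 and 8 it was -0.40, -0.08, 0.14 and 0.40 over the members (-0.24, 0.01, -0.06 and 0.35 over all genes). These are descriptions across genes, which share their libraries and are not independent replicates. No label gives a batch or an RNA quality value for these libraries.

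The choice of FLOX libraries moved the count of falls most. Without FLOX replicates 3 and 6 together, 17 members rose and 1 fell, beside 26.2% higher and 25.8% lower of all genes tested in that fit. Without FLOX replicates 4 and 7 together, an alternative chosen after seeing the data, 10 rose and 7 fell, beside 26.1% higher and 24.2% lower of all genes. The falls gained in that last fit were Tomm7, Grpel1, Tomm22 (log2 change -0.23, adjusted p = 0.00538 in edgeR) and Pmpcb (-0.20, adjusted p = 0.0246 in edgeR). The rises of Hspa9, Hspd1, Timm50, Timm8a1, Timm9, Tomm70a, Dnaja3, Lonp1, Pmpca and Afg3l2 and the fall of Timm8b were called with either pair left out. Between the log2 fold change and transcript length rho was 0.16 over the 40 members (0.06 over all genes). It was -0.0015 (-0.15 over all genes) without FLOX replicates 3 and 6, and 0.35 (0.28 over all genes) without FLOX replicates 4 and 7. Of 9 members with transcripts of up to 1 kb, Timm9 rose and Tomm6 and Timm8b fell. Of 21 members with transcripts over 2 kb, 9 rose and Timm10b fell. Over all tested genes of any length 23.8% rose and 21.6% fell. The shares within each length class were not computed, so a relation of these counts to length was not tested.

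**Figure D4:**
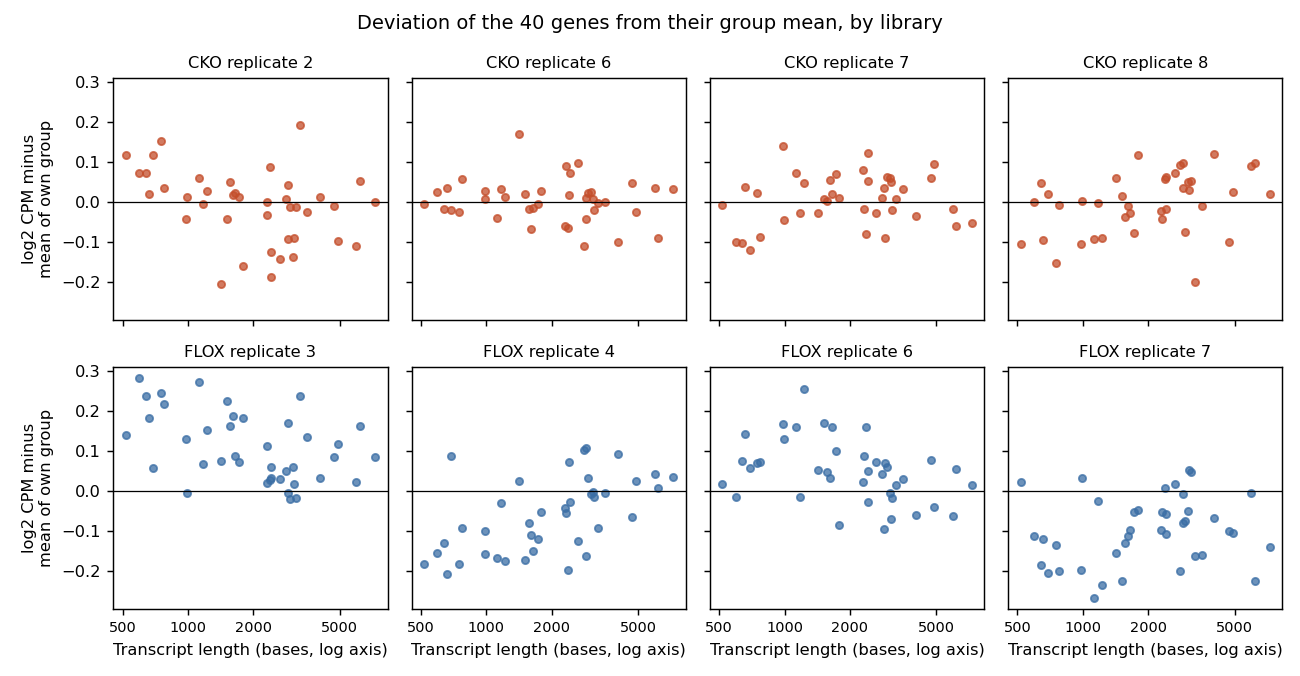
Deviation of each of the 40 genes from the mean of its own group (log2 CPM, y axis) against transcript length (bases, log x axis), 1 panel per library. The points slope down to the right in FLOX replicates 3 and 6 and CKO replicate 2, and up in FLOX replicate 4 and CKO replicate 8.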

How the data were processed

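The submitters' processing notes name HISAT2 2.0.5, HTSeq and mm10 for the read pairs of the 8 libraries; annotation, strand setting and HTSeq version: not given in the sources used here. The deposited values are raw counts per gene symbol, 1 file per library, with 66.3 to 71.7% of read pairs assigned to genes and the rest in 5 unassigned classes that were left out. The members and lists were chosen with earlier results of these data known. All genes were fitted together with edgeR 4.0.16 (TMM scaling, filterByExpr with a minimum count of 10, robust quasi-likelihood test, Benjamini-Hochberg adjustment over 11519 genes; R 4.3.3), with genotype as the only term; "rose" and "fell" mean an adjusted p below 0.05. The biological coefficient of variation was 8.77%, and counts of libraries of 1 group differed by more than sampling noise in every pair (chi-square per degree of freedom 2.45 to 27.8). CPM uses the TMM-scaled library size. SE and 95% intervals are on the log2 scale. The intervals use the 6 residual degrees of freedom, whereas the test adds prior degrees of freedom (median 6.31). They are therefore wider than the test implies for most genes, and can include 0 where the unadjusted p is below 0.05. Log2 ratios of gene pairs (0.5 counts added) were compared by an exact permutation test. Values are given per library for called members, for the 6 uncalled members of highest mean CPM, for Tomm7 and Timm13 (added after their values were seen), for up to 8 called genes of the wider list with Oma1 and Yme1l1, and for the stress factors. Positions and transcript lengths came from GENCODE M21 and promoters from RefSeq (GRCm38.p6; 33 of 40 members matched). The principal transcript was the longest one tagged as principal in GENCODE, or the longest coding one where none was tagged. Values per kilobase and length classes rest on that choice. Alternatives were other scalings and filters, DESeq2 1.42.0, limma-voom (limma 3.58.1), removal of the 20 most abundant genes, a replicate block, and libraries left out singly and in pairs.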

Additional observations from a re-analysis of the deposited data

Results flagged for a closer look

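In 8 of 80 groups of 4 libraries (40 genes in 2 genotypes; 10%), 1 library lay far from the other 3 relative to the group's range; chance gives about 1 in 20. For Hspd1 it was CKO replicate 2, at 238 CPM with the nearest CKO library at 281 CPM. For Dnajc19 it was CKO replicate 8, at 23.3 CPM with the nearest at 25.3 CPM. For Trap1 it was CKO replicate 6, at 86.3 CPM with the nearest at 80.0 CPM. For Pmpca it was CKO replicate 8, at 79.7 CPM with the nearest at 76.3 CPM, and FLOX replicate 7, at 66.9 CPM with the nearest at 64.0 CPM. For Timm10 it was FLOX replicate 7, at 9.87 CPM with the nearest at 11.9 CPM. For Timm23 it was FLOX replicate 3, at 58.9 CPM with the nearest at 55.6 CPM, and for Timm44 also FLOX replicate 3, at 62.1 CPM with the nearest at 52.9 CPM. The calls of Hspd1, Trap1 and Pmpca held with that library left out, and so did that of Timm23 without FLOX replicate 3.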

How the results depend on the processing

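RLE factors, a filter of 1 CPM in 4 libraries and DESeq2 each called the same 17 members. Hspa9, Hspd1, Timm50, Tomm70a, Timm8a1, Timm8b, Dnaja3 and Lonp1 were called in all 19 alternatives, and no called gene or pair changed sign. The count of TIM genes that fell was 1 in place of 2 with upper-quartile factors, limma-voom, the 20 most abundant genes removed, or CKO replicate 2 and FLOX replicate 6 left out together, and the wider list had 4 rises in place of 7 without the filter. With 1 library left out at a time, 15 to 17 members were called, 11 to 14 higher and 1 to 5 lower. TOM had 1 to 2 rises and 0 to 2 falls, and TIM 4 to 6 rises and 1 to 3 falls. The wider list had 4 to 8 rises and 3 falls. Shares over all genes were not set beside these single-library counts, which show only how far the calls moved. Without FLOX replicates 3 and 6 together, 1 member fell (TOM 0, TIM 1) and 11 genes of the wider list rose. Without FLOX replicates 4 and 7 together (chosen after seeing the data), 7 members fell (TOM 3, proteases 1), 1 TOM gene rose, and the wider list had 4 rises and 6 falls. For these counts the cause was not tested beyond the fewer samples fitted.

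Only numbers 6 and 7 occur in both groups and no label says that a number marks a shared source, so the numbers were not taken as pairs. Deviations of libraries of the same number had correlations of 0.14 and -0.07 across genes. For libraries of different numbers they ran from -0.30 to 0.24, so these values cannot decide whether a source was shared. With the replicate block, 8 members were called, 7 higher and 1 lower, beside 30.4% of all genes (TOM 1 higher and 0 lower, so 1 in all; TIM 3 higher and 1 lower, so 4 in all; proteases 1, higher), the wider list had 5 calls of which 3 were rises, and 1518 genes fell over all genes. In the block the Timm17a to Timm17b ratio differed by 0.47 and the Tomm40 to Tomm40l ratio by 0.068, each a mean of the differences at numbers 6 and 7. A library whose number occurs in 1 group only adds nothing to the genotype difference in the block. The counts under the block therefore rest on replicates 6 and 7 of each group and not on all 8 libraries. Pam16, at 7.46 to 8.47 CPM in CKO and 6.81 to 9.39 CPM in FLOX, rests on the fewest read pairs of the 40.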
